A study of Mus musculus with 9 samples.

Results

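The genes described here are 10 circadian clock and clock output factors, measured in mouse epidermis after inactivation of Alox12b, the R-specific lipoxygenase of the skin barrier. They were chosen by name, with earlier results of these data known, and every probe set assigned to exactly 1 of these genes was kept. All 10 genes were found, with 24 probe sets among 45037. The tested mice, called inactivated, had the genotype p/p +/cre, which is both Alox12b alleles floxed plus Cre-ERT2, a tamoxifen-dependent recombinase, under the cytokeratin K14 promoter that is active in basal keratinocytes. The controls were floxed littermates of genotype p/p +/+ without Cre. Both groups were on the hairless SKH1 background (5 backcross generations), received 3 intraperitoneal injections of 1 mg tamoxifen in sunflower seed oil at 8 weeks of age, and were sampled 6 days after the treatment. Epidermis scratched from frozen skin was hybridised to Affymetrix Mouse Genome U430 2.0 arrays, 1 per mouse, with 5 inactivated mice and 4 controls that the labels call biological replicates. The labels give no hour of sacrifice and no lighting schedule. With 1 array per mouse, a difference in hour or daily timing and a difference in level cannot be told apart. Cre was present in every inactivated mouse and in no control, so its own effect and that of losing Alox12b cannot be told apart. Values are per probe set on a log scale read as log2, and differences are inactivated minus control on that scale.

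The circadian clock is a transcriptional loop that runs in nearly every cell, keratinocytes included, with a period of about a day. CLOCK and BMAL1, the product of Arntl, bind E-boxes as a pair and switch on the Per and Cry genes, whose products return to inhibit them. The same pair drives the nuclear receptors Nr1d1 and Nr1d2 (REV-ERB alpha and beta), which repress Arntl and Nfil3 through sites called ROREs. It also drives the leucine zipper factor Dbp, which acts with its relatives Hlf and Tef at D-boxes, where NFIL3 competes as a repressor. In skin this loop is known for setting the daily timing of keratinocyte division and of repair genes.

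The promoter windows that hold the letters of these sites are shown first. The members' values are ordered below by their known roles in the loop, not by these matches. The sequences are from RefSeq (build GRCm38.p6), run 5′ to 3′ on the strand of the gene, cover 250 bases before and 50 after a transcript start, and have the matched letters in capitals. The Per3 window (chr4:151044616-151044915, minus strand) holds 2 D-boxes. The Arntl window (chr7:113207261-113207560, plus strand) holds 1 RORE, just after the start. The Per1 window (chr11:69098699-69098998, plus strand) holds 1 E-box, and the Hlf window (chr11:90390868-90391167, minus strand) holds 1 cyclic AMP response element, CRE, directly before the start.
Per3: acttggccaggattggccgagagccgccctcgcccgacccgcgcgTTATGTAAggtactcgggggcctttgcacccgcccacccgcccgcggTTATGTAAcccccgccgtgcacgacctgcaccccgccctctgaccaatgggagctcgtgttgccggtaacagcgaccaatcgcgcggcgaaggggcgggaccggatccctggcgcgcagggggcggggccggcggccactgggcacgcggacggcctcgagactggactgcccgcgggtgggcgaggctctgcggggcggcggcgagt
Arntl: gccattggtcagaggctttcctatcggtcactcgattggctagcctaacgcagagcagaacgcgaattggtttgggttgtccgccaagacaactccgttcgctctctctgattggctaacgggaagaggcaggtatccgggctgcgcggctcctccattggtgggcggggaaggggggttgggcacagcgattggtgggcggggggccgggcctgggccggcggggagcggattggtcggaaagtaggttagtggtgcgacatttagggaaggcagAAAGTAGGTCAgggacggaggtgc
Per1: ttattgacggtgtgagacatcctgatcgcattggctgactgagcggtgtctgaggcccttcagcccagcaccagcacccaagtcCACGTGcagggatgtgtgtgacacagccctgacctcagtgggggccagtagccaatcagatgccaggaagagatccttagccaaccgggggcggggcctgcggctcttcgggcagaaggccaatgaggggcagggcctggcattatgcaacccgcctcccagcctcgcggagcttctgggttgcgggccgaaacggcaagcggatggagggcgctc
Hlf: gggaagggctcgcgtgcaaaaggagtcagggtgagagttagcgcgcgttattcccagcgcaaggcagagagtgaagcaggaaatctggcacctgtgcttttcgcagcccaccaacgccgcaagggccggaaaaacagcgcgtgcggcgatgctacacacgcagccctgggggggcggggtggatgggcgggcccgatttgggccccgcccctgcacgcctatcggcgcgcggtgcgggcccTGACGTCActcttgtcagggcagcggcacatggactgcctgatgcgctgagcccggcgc

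The letters searched on both strands were CACGTG for the E-box, TTANGTAA for the D-box, TGACGTCA for the CRE, and the RORE consensus, and no matches overlapped one another. Of the 10 genes, 9 had a window in the table, with 13 windows in all; Per2 had none. Of all 32851 windows of this length, 7.15% held the E-box, 2.32% the D-box, 1.79% the CRE and 0.384% the RORE. Each of the 4 motifs was thus found in 1 of the 9 genes. These motifs were chosen with the members in view, and a match describes letters, not a bound site.

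**Figure D1:**
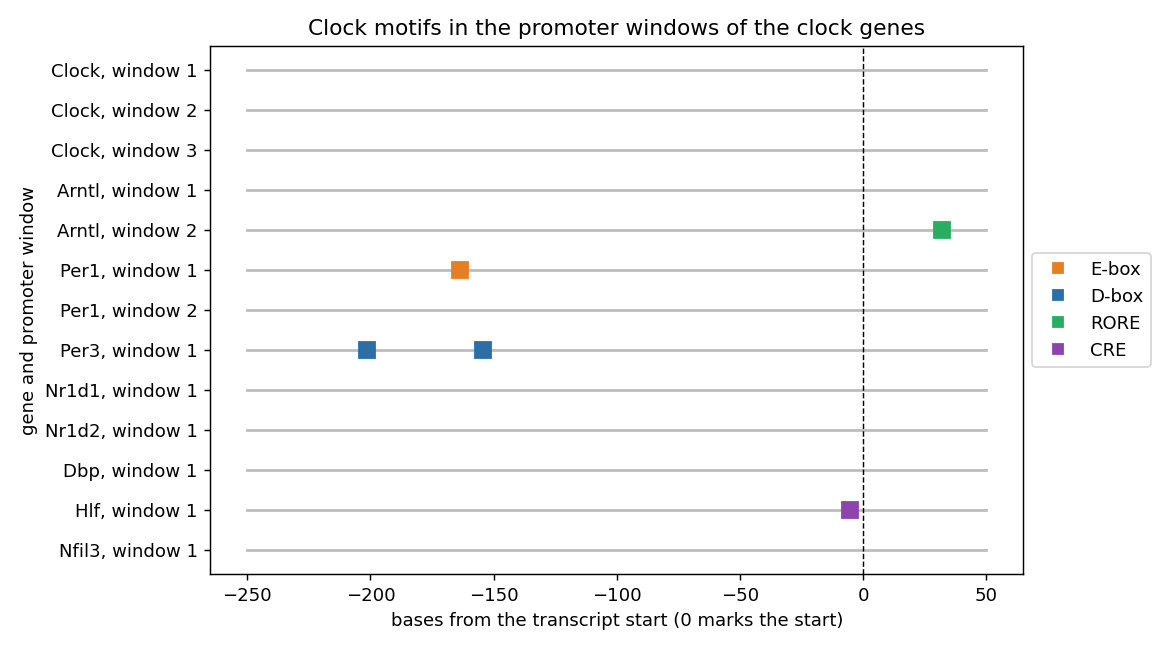
Position of motif letters in the 13 promoter windows of 9 clock genes. The x axis is the distance in bases from the transcript start, each grey line is 1 window, and squares mark matches; Per3 carries 2 D-boxes, at -205 to -198 and at -158 to -151, Per1 an E-box, Arntl a RORE after the start and Hlf a CRE just before it.

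In the inactivated epidermis the activating output factors of the clock were low. Hlf was 6.93-fold lower and Dbp 5.74-fold lower than in controls, and Per3 and Nr1d2 were 2.98-fold and 2.33-fold lower on their brightest probe sets. Clock and Nfil3 were higher by 1.47-fold and 1.77-fold, Clock on 1 of its 4 probe sets, while Per1, Per2, Nr1d1 and the brighter Arntl probe set did not pass. Of the 24 probe sets, 3 were higher, 11 lower and 10 did not pass (limma with Benjamini-Hochberg adjustment over all 45037 probe sets, adjusted p threshold 0.05). That is 58.3% called, against 28.6% of all probe sets, and the lower calls alone are 45.8%, against 16% of all. Of the 11 lower calls, 5 were of Per3. The genes were chosen with earlier results of these data known, which limits what the shares given here can show. The groups did not overlap in 13 of the 24, which is 54.2% against 25.7% of all. The median difference of the 24 was -0.71, against 0.03 over all probe sets. Counted by gene on the brightest probe set, 2 were higher, 4 lower and 4 did not pass, which is 60% called, against 34.4% of 18193 genes, and 40% lower, against 18.9%. The groups did not overlap in 6 of the 10, against 31.6% of all genes. Among these genes, only 31 had a lower difference than Hlf and 39 a lower difference than Dbp.

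**Figure D2:**
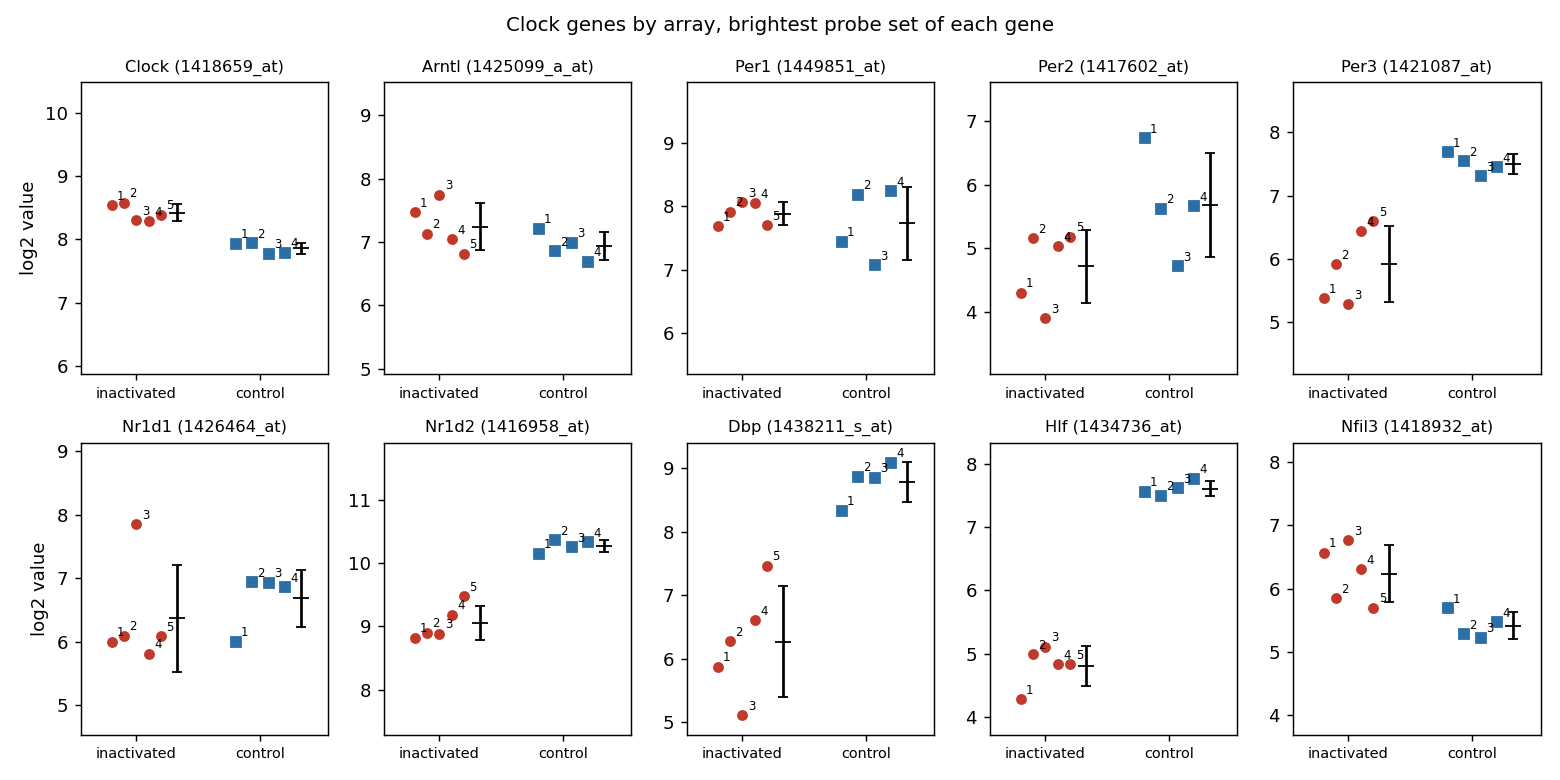
Log2 value on each array for the brightest probe set of the 10 clock genes, inactivated arrays (red circles) left of control arrays (blue squares), numbered by replicate; black bars give the mean and SD of 5 and 4 arrays, and every panel spans the same number of log2 units. Hlf, Dbp, Per3 and Nr1d2 lie wholly below the controls, Clock and Nfil3 wholly above, and Arntl, Per1, Per2 and Nr1d1 overlap.

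The positive arm is formed by Clock and Arntl. Clock, a DNA-binding partner of BMAL1, read 8.54, 8.58, 8.31, 8.29 and 8.39 on inactivated arrays 1 to 5, against 7.93, 7.95, 7.78 and 7.79 on control arrays 1 to 4 (1418659_at). All inactivated arrays were above all controls, and Clock rose by 0.56 ± 0.08 (SE, adjusted p = 0.000772, limma). The other Clock probe sets did not follow it. 1418660_at averaged 6.79 ± 0.20 in the inactivated group and 7.09 ± 0.06 in the controls (SD, n = 5 and 4), a difference of -0.30 (adjusted p = 0.0516). 1435775_at differed by 0.004 and 1439314_at by 0.16 (adjusted p = 0.975 and 0.215). The difference of 1418660_at passed without inactivated replicate 3 (-0.37, adjusted p = 0.0112) and with array weights (-0.32, adjusted p = 0.0127). It also passed when only probe sets above the median or above the 25th percentile were kept (adjusted p = 0.0387 and 0.0463). In each of these fits, probe sets of Clock were called in both directions. The direction for Clock therefore depends on the probe set.

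Arntl, whose protein BMAL1 is the obligate partner of CLOCK, was read by 2 probe sets. The brighter, 1425099_a_at, read 7.47, 7.13, 7.75, 7.05 and 6.82 on inactivated arrays 1 to 5, against 7.21, 6.86, 6.99 and 6.69 on control arrays 1 to 4. Inactivated replicates 1 and 3 were above every control, and replicates 2, 4 and 5 lay within the control range. The difference was 0.31 ± 0.18 (SE, adjusted p = 0.230). The dimmer one, 1457740_at, rose by 0.38 ± 0.12 (adjusted p = 0.0331) with overlapping groups. That call was lost without inactivated replicate 1, 3 or 4, or without control replicate 3 or 4, with adjusted p from 0.0613 to 0.101.

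The Per genes encode inhibitors of the loop, and of the 3, Per3 alone had probe sets that passed. Differences between the Per genes were not tested. Per3, which carries the D-boxes shown above, read 5.38, 5.92, 5.28, 6.44 and 6.60 on inactivated arrays 1 to 5, against 7.69, 7.55, 7.31 and 7.45 on control arrays 1 to 4 (1421087_at). Every inactivated array was below every control, by 1.57 ± 0.26 on average (SE, adjusted p = 0.00128). Of the 6 Per3 probe sets, 5 fell, with differences of -1.57 to -0.82. The remaining one, 1421086_at, is the dimmest of the 24 and differed by -0.30 (adjusted p = 0.0743, and 0.0368 without inactivated replicate 2).

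Per2, a partner of the CRY repressors, varied widely among mice. It read 4.29, 5.15, 3.90, 5.03 and 5.18 on inactivated arrays 1 to 5, against 6.73, 5.62, 4.72 and 5.66 on control arrays 1 to 4 (1417602_at). The groups overlapped through control replicate 3, and the difference of -0.97 ± 0.38 did not pass (adjusted p = 0.0830). Without control replicate 3 it was -1.29 (adjusted p = 0.0287), and 1457350_at then passed as well, with -0.87 (adjusted p = 0.0138). The third Per2 probe set differed by -0.28 (adjusted p = 0.336).

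Per1, which responds rapidly to light and hormone signals, has 1 probe set and the E-box window shown above. It read 7.69, 7.91, 8.07, 8.05 and 7.70 on inactivated arrays 1 to 5, against 7.44, 8.18, 7.07 and 8.24 on control arrays 1 to 4. The inactivated values all lay inside the control range, and the difference was 0.15 ± 0.23 (95% confidence interval -0.35 to 0.65, adjusted p = 0.650). It turned to -0.07 without control replicate 3.

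Of the REV-ERB receptors, repressors of Arntl and Nfil3, Nr1d2 passed on both probe sets and Nr1d1 did not pass. Nr1d2 read 8.82, 8.90, 8.89, 9.18 and 9.48 on inactivated arrays 1 to 5, against 10.15, 10.36, 10.25 and 10.33 on control arrays 1 to 4 (1416958_at). All inactivated arrays were lower, by 1.22 ± 0.13 on average (SE, adjusted p = 9.14e-05), and 1416959_at fell by 1.04 ± 0.21 (adjusted p = 0.00417). Nr1d1 read 6.00, 6.10, 7.85, 5.81 and 6.08 on inactivated arrays 1 to 5, against 6.00, 6.93, 6.93 and 6.85 on control arrays 1 to 4 (1426464_at, its only probe set). In each group a single array stood apart, inactivated replicate 3 being the highest of all and control replicate 1 level with the other inactivated arrays. Its difference of -0.31 ± 0.39 did not pass (adjusted p = 0.578). Without inactivated replicate 3 it was -0.68 (adjusted p = 0.0289). The difference between the effects on Nr1d1 and Nr1d2 was not tested.

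Dbp, the leucine zipper factor that reads out the E-box arm, was low on every inactivated array but to unequal degrees; its SD there, 0.87, was the largest among the 6 genes called on their brightest probe set. It read 5.87, 6.28, 5.10, 6.60 and 7.47 on inactivated arrays 1 to 5, against 8.33, 8.87, 8.85 and 9.09 on control arrays 1 to 4 (1438211_s_at). Inactivated replicate 5 was nearest to the controls and replicate 3 farthest, and no inactivated array reached the control range. The difference was -2.52 ± 0.38 (SE, adjusted p = 0.00078), and 1418174_at fell by 2.51 ± 0.32 (adjusted p = 0.000265).

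Hlf, the Dbp relative named after a fusion found in leukaemia, was low on all inactivated arrays to a like degree. It read 4.28, 5.00, 5.11, 4.84 and 4.83 on inactivated arrays 1 to 5, against 7.56, 7.49, 7.61 and 7.76 on control arrays 1 to 4 (1434736_at). The inactivated values lay near the medians of those arrays (4.34 to 4.39), which limits what their evenness shows. The gap between the groups was far wider than the spread within either, with a difference of -2.79 ± 0.15 (SE, adjusted p = 1.57e-06; two-sided exact permutation p = 0.00794, the smallest that 126 splits can give). The other Hlf probe set fell by 1.75 ± 0.15 (adjusted p = 2.06e-05).

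Nfil3, the repressor that competes with these factors at D-boxes, moved the other way. It read 6.56, 5.85, 6.76, 6.30 and 5.70 on inactivated arrays 1 to 5, against 5.69, 5.28, 5.23 and 5.47 on control arrays 1 to 4. Inactivated replicate 5 was only just above control replicate 1, and the other inactivated arrays were clear of the controls. Nfil3 rose by 0.82 ± 0.21 (SE, adjusted p = 0.0139).

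**Figure D3:**
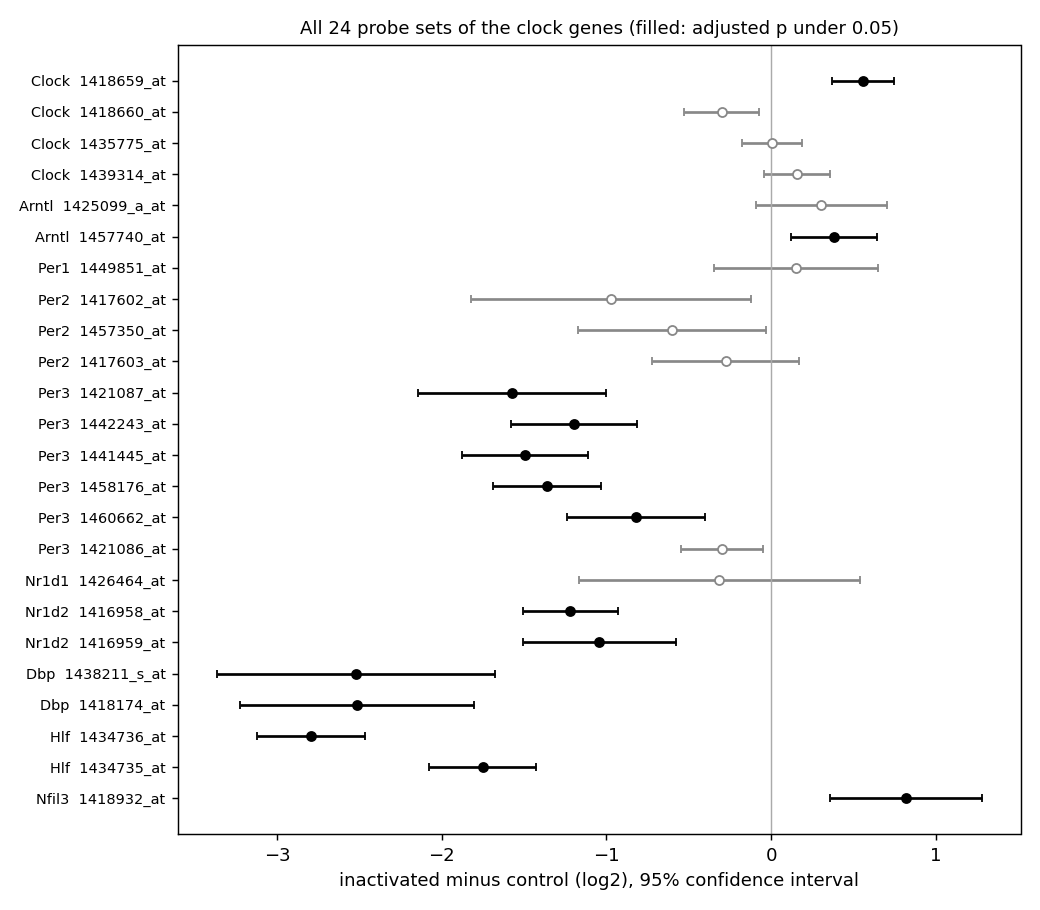
Difference between inactivated and control arrays (log2) for all 24 probe sets of the clock genes, with 95% confidence intervals from limma; filled points passed at adjusted p 0.05. All called Per3, Nr1d2, Dbp and Hlf probe sets lie left of 0, and the called Clock, Arntl and Nfil3 probe sets lie right of it.

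The inactivated mice were not alike in these genes, and several members ranked them in related orders. On their brightest probe sets, Dbp and Per3 both ordered the inactivated arrays 3, 1, 2, 4, 5 from lowest to highest. Arntl ordered the same arrays exactly the other way round, from 5 at the bottom to 3 at the top. Nr1d2 differed from the Dbp order only in placing array 1 below array 3, and Nfil3 was highest on arrays 3 and 1 and lowest on array 5. Tef, a non-member named below, also had arrays 1 and 3 at the bottom and 5 at the top. Hlf and Clock did not share this order. Dimmer probe sets kept it only in part. Dbp 1418174_at again ran 3, 1, 2, 4, 5, and Per3 1442243_at had array 3 lowest and array 5 highest. Arntl 1457740_at ran 5, 2, 3, 4, 1, and Nr1d2 1416959_at ran 2, 1, 4, 3, 5. Per3 1458176_at was highest on array 2 and Per3 1441445_at on array 4. Among controls, on the brightest probe sets, Dbp was lowest and Arntl highest on replicate 1, and Dbp highest and Arntl lowest on replicate 4. These orders describe 5 and 4 mice and were not tested.

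**Figure D4:**
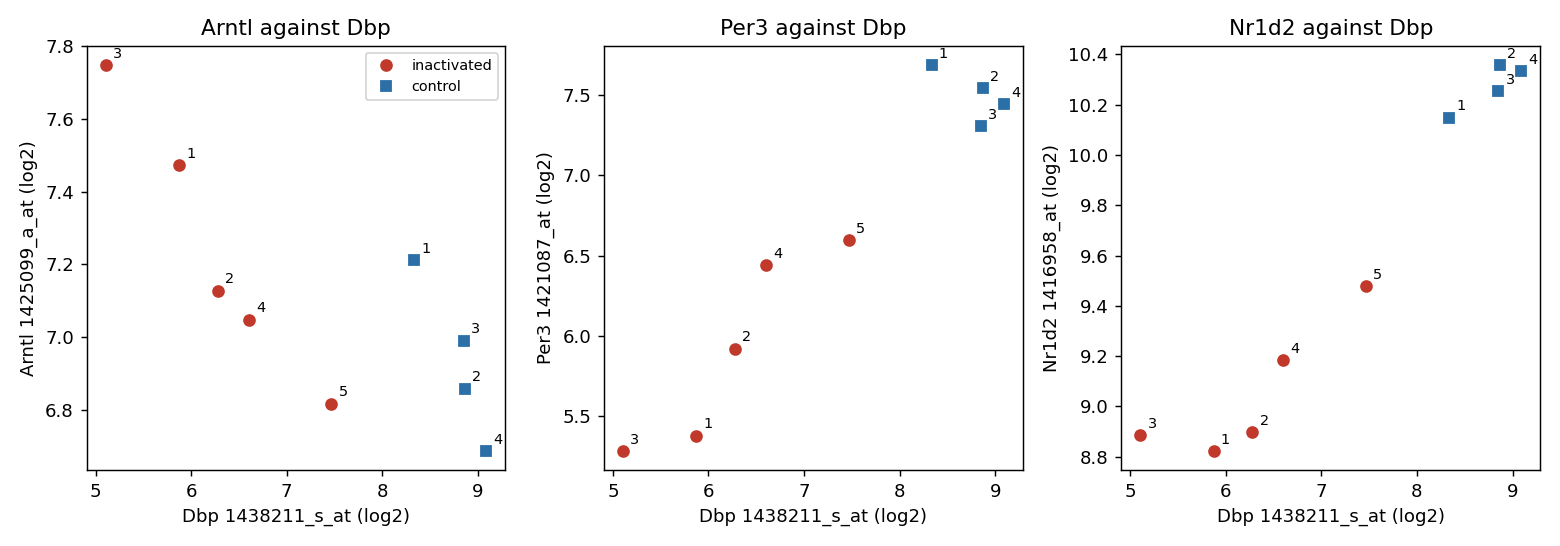
Arntl, Per3 and Nr1d2 (y axes, log2) plotted against Dbp (x axes, log2) on the 9 arrays, with inactivated arrays as red circles and controls as blue squares, numbered by replicate. Each gene is shown by its brightest probe set. Within the inactivated group, array 3 has the lowest Dbp (5.10) and the highest Arntl (7.75), and array 5 has the highest Dbp (7.47) and the lowest Arntl (6.82).

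The genes most like Dbp and Arntl were ranked by the Pearson correlation of values centred within each group, over 9 arrays and 11378 genes brighter than the median. Nearest to Dbp were Cnep1r1 (r = 0.979), Klrd1 (r = 0.974) and Rgs18 (r = 0.970), and nearest to Arntl were Abca7 (r = 0.982), Pgs1 (r = 0.974) and Ncoa6 (r = 0.953). These values describe the mice of this study, since the arrays share their group and the genes were picked as the extremes of the ranking.

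Of 27 further measured clock genes, 3 were higher, 8 lower and 16 did not pass, with a median difference of -0.01, against 0.03 over all genes. That is 40.7% called, against 34.4% of all genes, with 29.6% lower, against 18.9% of all, and 11.1% higher, against 15.5% of all. The count was 6 without control replicate 3 or without control replicate 4. Tef, the third of the Dbp family, fell on all 3 of its probe sets. It read 7.50, 7.79, 7.52, 8.18 and 8.38 on inactivated arrays 1 to 5, against 9.10, 8.99, 8.89 and 8.99 on control arrays 1 to 4, with no overlap. The difference was -1.12 ± 0.17 (SE, adjusted p = 0.000919). Arntl2, a paralogue of Arntl whose product also pairs with CLOCK, read 5.99 to 6.45 on the inactivated arrays and 4.69 to 5.27 on the controls. It rose by 1.19 ± 0.13 (adjusted p = 8.97e-05).

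The remaining calls in that list were smaller. Bhlhe40, an E-box repressor, rose by 0.39 ± 0.11 (adjusted p = 0.0201), a call lost without control replicate 2 or 3. The deacetylase Sirt1 and the inhibitor of helix-loop-helix factors Id2 fell by 0.33 ± 0.08 and 0.58 ± 0.14 (adjusted p = 0.0106 and 0.0119). The loop repressors Cry1, Cry2 and Ciart were singled out after their values were seen. Cry2 fell by 0.51 ± 0.13 without overlap (adjusted p = 0.0124), and Ciart fell by 0.47 ± 0.13 (adjusted p = 0.0187, lost without control replicate 2 or 4 and, at -0.36, under quantile normalisation, adjusted p = 0.0536). Cry1 read 6.49 to 6.86 on the inactivated arrays, against 7.05 on control replicate 1 and 5.69 to 5.80 on the other controls. Its difference of 0.58 ± 0.25 did not pass (adjusted p = 0.105), but was 0.91 without control replicate 1 (adjusted p = 0.000286). On the brightest probe sets, control replicate 1 had the highest Per2, Cry1 and Arntl, and the lowest Nr1d1 and Dbp, of the 4 controls; the order differed on Per2 1457350_at, highest on control replicate 4, and on Arntl 1457740_at, highest on control replicate 2.

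**Figure D5:**
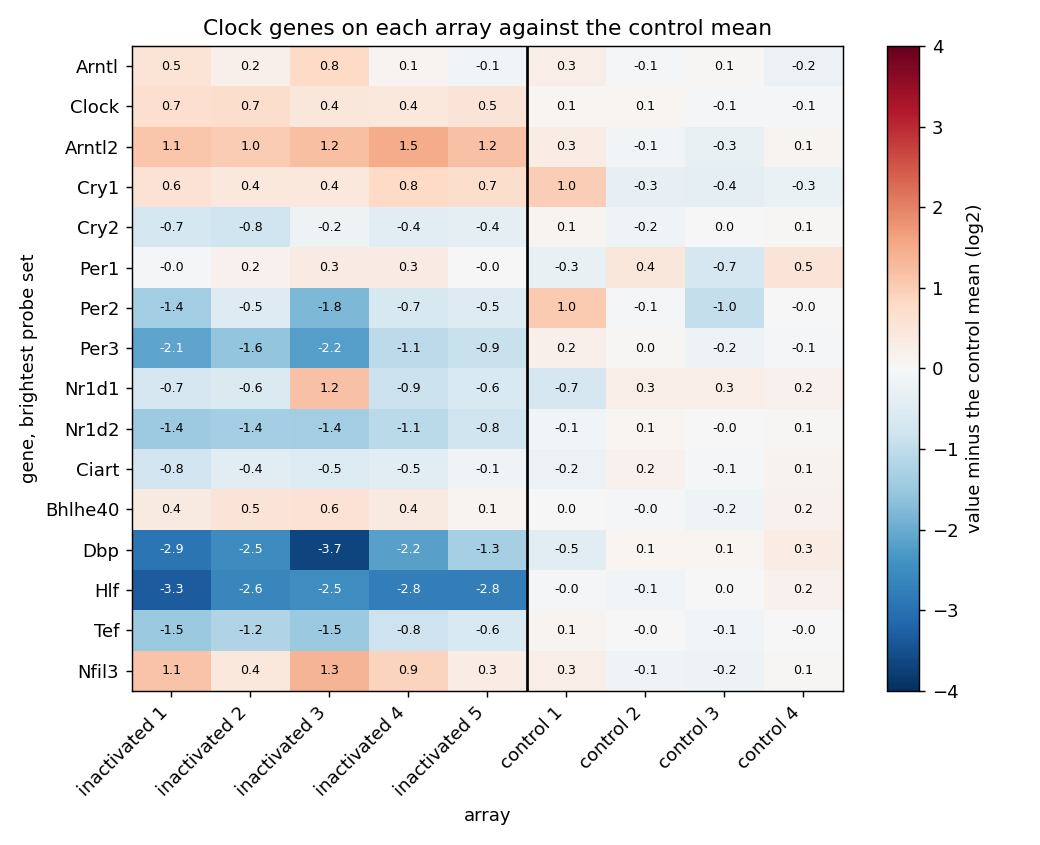
Value of 16 clock genes on each array minus the mean of the 4 controls (log2, blue below and red above), inactivated arrays left of the line and controls right of it, brightest probe set of each gene. Hlf is at -3.3 to -2.5 on every inactivated array, whereas Dbp runs from -3.7 on array 3 to -1.3 on array 5. Control 1 stands apart in Cry1 and Nr1d1, and in Per2 the controls run from -0.96 on control 3 to 1.05 on control 1.

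Of 13 measured genes known to follow the clock in skin or liver, 5 passed as higher, 3 passed as lower and 5 did not pass (61.5% called, against 34.4% of all genes; 5 calls without control replicate 2). The cell cycle genes Ccnd1, a cyclin, and Cdkn1a, a cyclin-dependent kinase inhibitor, rose by 1.10 ± 0.12 and 0.76 ± 0.10 (adjusted p = 8.78e-05 and 0.000231). Alas1, which starts haem synthesis, rose by 1.04 ± 0.09 (adjusted p = 1.8e-05). The fatty acid receptor Ppara fell by 2.19 ± 0.23 (adjusted p = 9.06e-05). Its other probe sets fell less, 1449051_at by 1.17 and 1457721_at by 0.46 (adjusted p = 4.06e-05 and 0.0171). Wee1, a mitotic inhibitor kinase under E-box control, fell by 0.80 ± 0.21 with overlap (adjusted p = 0.0151, and 0.0505 without control replicate 2). Its dimmer probe set, 1416774_at, differed by -0.73 and did not pass (adjusted p = 0.0596).

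Glucocorticoid hormones also set peripheral clocks, and Per1 is among their targets. Of 16 genes of that response, 3 were higher, 2 lower and 11 did not pass (31.2% called, against 34.4% of all genes). The receptor itself, Nr3c1, fell by 0.90 ± 0.09 (adjusted p = 6.7e-05), and the hormone-activating enzyme Hsd11b1 rose by 1.19 ± 0.22 (adjusted p = 0.00279). The metallothioneins Mt2 and Mt1, metal-binding proteins, rose by 0.76 ± 0.14 and 0.70 ± 0.17 (adjusted p = 0.00226 and 0.012). Zbtb16, a zinc finger repressor, fell by 0.97 ± 0.25 (adjusted p = 0.0158, 0.0534 without control replicate 2, and 0.0706 with the replicate number as a block). Of its dimmer probe sets, 1419874_x_at fell by 1.10 (adjusted p = 0.00185), and 1427638_at differed by -0.36 and did not pass (adjusted p = 0.204). In an immediate early list of 20 genes, which also holds Creb1, 6 were higher, 2 lower and 12 did not pass (40% called, against 34.4% of all genes). The count was 5 without control replicate 2 or without control replicate 3. The stress response gene Ier3, the mRNA decay factor Zfp36 and the AP-1 subunit Junb rose by 1.93, 1.18 and 0.82, and the zinc finger factor Egr2 fell by 0.71 (adjusted p = 1.47e-05, 0.000724, 0.00075 and 0.000203). For Creb1, whose product binds the CRE, the direction depends on the probe set. The brightest, 1452901_at, differed by -0.41 (adjusted p = 0.0275), a call lost without any of the 4 controls in turn and with sex as a covariate (adjusted p = 0.0612), and 1428755_at by -0.42 (adjusted p = 0.0454). The dimmer 1423402_at and 1421582_a_at passed as higher, by 0.61 and 0.34 (adjusted p = 0.00203 and 0.0382).

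Alox12b itself averaged 9.89 ± 0.29 in the inactivated group and 9.28 ± 0.10 in the controls (SD, n = 5 and 4; 1418266_at), a difference of 0.61 (adjusted p = 0.00694, limma). No source used here says whether its probes lie in the floxed exons, so it checks nothing about the deletion. Array medians were 4.34 to 4.39 in the inactivated group and 4.38 to 4.42 in the controls. Keratinocyte markers were bright in both groups, with list means of 11.7 to 12.1 on the inactivated arrays and 12.3 to 12.5 on the controls. Of the 7 measured, 1 was higher, 2 lower and 4 did not pass: the basal keratin Krt14 rose by 0.47, the basal transcription factor Trp63 fell by 0.35, and the basal keratin Krt15 fell by 3.22 (adjusted p = 0.000445, 0.0115 and 5.01e-06). Krt15 averaged 8.59 in the inactivated group and 11.82 in the controls. In whole epidermis, fewer cells of a type and less RNA per cell cannot be told apart. Markers of several other cell types also moved with the groups. Over all genes, 34.4% were called, 18.9% as lower and 15.5% as higher. The keratinocyte list had 42.9% called, and the mast cell and endothelial lists had 20% each, below the share of all genes. Fibroblast markers fell in 7 of 8 (list means of 9.69 to 10.5 on the inactivated arrays and 10.5 to 11.2 on the controls). T cell markers fell in 4 of 5 (4.79 to 5.20 inactivated, 5.80 to 6.20 control), Langerhans and dendritic cell markers in 4 of 6 (9.33 to 10.02 inactivated, 10.05 to 10.22 control) and macrophage markers in 4 of 6 (8.08 to 8.84 inactivated, 8.91 to 9.20 control). All 5 melanocyte markers rose (4.66 to 6.28 inactivated, 3.40 to 3.73 control). Neutrophil markers had 2 of 5 higher and 1 lower (4.30 to 4.71 inactivated, 4.26 to 4.48 control), and mast cell (6.62 to 7.59 inactivated, 6.94 to 7.15 control) and endothelial markers (4.80 to 5.56 inactivated, 4.97 to 5.44 control) each had 1 of 5 higher. No skeletal muscle or adipocyte marker passed (adipocyte list means 3.94 to 6.92 inactivated, 4.01 to 5.34 control), but inactivated replicate 4 had a muscle list mean of 7.27, against 3.52 to 3.76 in the controls. The part of these cells in the clock gene differences was not tested.

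The labels give no sex. By Xist and Y-linked transcripts, inactivated replicates 3, 4 and 5 were female and the other 2 male, while control replicate 1 was female and the other 3 male. Among the females the inactivated minus control difference was -1.94 for Dbp, -2.63 for Hlf, -1.58 for Per3, -0.97 for Nr1d2, 0.57 for Nfil3 and 0.40 for Clock. Among the males it was -2.86 for Dbp, -2.98 for Hlf, -1.78 for Per3, -1.45 for Nr1d2, 0.88 for Nfil3 and 0.72 for Clock. These genes thus kept their direction in both sexes, with 1 female control. Arntl, on its brighter probe set, differed by -0.0065 among the females and 0.45 among the males, and Per1 by 0.50 and -0.03. Per2 differed by -2.03 among the females and -0.61 among the males. Nr1d1 differed by 0.58 among the females and by -0.86 among the males, and the sex difference in effect did not pass (adjusted p = 0.912; limma, unadjusted p = 0.110).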

How the data were processed

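Total RNA from epidermal sheets of 9 mice was labelled from the 3′ end and hybridised to 1 array each, per the labels' protocols. The authors deposited 1 value per probe set and array, on a log scale read here as log2. The submitters' processing notes name the tool affy, and no source used here states the background correction, normalisation or log base; the maxima, near 13.5, exceed what a natural log of scanner values could reach. Values were used as deposited. Summarised array values are compressed near background, so folds of dim transcripts are understated. Array number limits the precision, and no read depth applies.

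Of 45037 probe sets, 34945 have 1 gene symbol in the platform annotation. A gene counted once is represented by its brightest probe set. The groups were fitted in R 4.3.3 with limma 3.58.1 (moderated tests by eBayes, both directions, without covariates), with Benjamini-Hochberg adjustment over all probe sets and a threshold of 0.05. For single probe sets an exact permutation test enumerated all 126 splits. The steps were tested on simulated data. The members and all lists were chosen with earlier results of these data known. All members are named; other lists name up to 4 genes with the lowest adjusted p and up to 2 called against the majority. The labels do not assign mice to litters, and p-values measure the spread between these mice. Alternatives were other normalisations, filters on dim probe sets, other variance settings, sex, a replicate block, the males alone, each array left out, and an adjusted p of 0.01. The replicate block left out inactivated replicate 5, since no control carries that number.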

Additional observations from a re-analysis of the deposited data

Results flagged for a closer look

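An array standing far from the rest of its group was looked for in 132 groups of values, and chance alone marks about 1 in 20 of such groups; 7 were found. Nr1d1 gave a pair of them: inactivated replicate 3 read 7.85, against 5.81 to 6.10 on the other inactivated arrays, and control replicate 1 read 6.00, against 6.85 to 6.93 on the other controls. Cry1 read 7.05 on control replicate 1, against 5.69 to 5.80 on the other controls. Nr3c1 read 7.13 on inactivated replicate 2, against 7.35 to 7.40 on the other inactivated arrays. Btrc, a ubiquitin ligase subunit that acts on PER proteins, read 3.99 on inactivated replicate 1, against 4.13 to 4.17 on the others. Creb1 read 6.98 on inactivated replicate 3, against 7.48 to 7.64 on the others, and Egr2 read 9.01 on inactivated replicate 5, against 8.69 to 8.75.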

How the results depend on the processing

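Among the 24 probe sets, 14 passed as reported, and 13 to 17 under the other normalisations, filters, variance settings, sex as a covariate, the replicate block, the males alone (added after the data were seen) and each array left out (13 to 15). The count was 12 of 24 at the 0.01 threshold, and 6 of 10 when each gene was counted once. The filter above the median kept 20 of the 24 probe sets, of which 13 passed. The other clock genes had 11 calls, 6 to 10 with an array left out, 2 at the 0.01 threshold and 5 among the males. The clock-controlled genes had 8 calls, 5 to 7 with an array left out and 4 at the 0.01 threshold. The glucocorticoid list, which holds the receptor Nr3c1 and the enzyme Hsd11b1 beside targets, had 5, and 3 at that threshold. The immediate early list had 8, 5 to 11 with an array left out, 5 at that threshold and 14 with array weights. Clock 1435775_at, near 0, turned negative with array weights (-0.0223), sex as a covariate (-0.0107), the replicate block (-0.00685) and the males alone (-0.14), and ran from -0.0396 to 0.0404 with an array left out. Per1 was -0.0290 among the males and ran from -0.0709 to 0.32 with an array left out. The cause of these shifts was not tested.

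With sex as a covariate the dimmer Arntl probe set did not pass (adjusted p = 0.0616). Nr1d1 passed among the males (-0.86, adjusted p = 0.00229). Same-numbered arrays did not deviate together over all probe sets (r of -0.27 to 0.08). Such a correlation can miss a shared litter or hour, and the labels do not say whether the numbers pair the mice. With the replicate block, which also leaves out inactivated replicate 5, 17 probe sets passed. Among them were the brighter Arntl probe set (0.41, adjusted p = 0.0372) and Per2 1417602_at (-1.09, adjusted p = 0.0483) and 1457350_at (-0.67, adjusted p = 0.0392). With 1 array left out and no block, that Arntl difference also reached 0.41, but its adjusted p was at least 0.0911. Zbtb16 lost its call under that block (-0.89, adjusted p = 0.0706). Among the males alone, Sirt1, Id2, Bhlhe40, Wee1, Mt1 and Creb1 kept their direction but did not pass (adjusted p from 0.0567 to 0.139), nor did the dimmer Arntl probe set (0.0962), while Cry1 passed (0.82, adjusted p = 0.00323), as it did with array weights (0.79, adjusted p = 0.0170).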
